A study of Mus musculus with 6 samples.

Results

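Krüppel-like factors are DNA-binding proteins with a block of zinc fingers at the carboxyl end that reads CACCC and GC-rich boxes in promoters, and they act as activators or repressors depending on the partners they recruit. In blood they are known for fate decisions (KLF1 in red cells, KLF4 in monocytes) and for holding lymphocytes at rest (KLF2), and several of their genes are switched on within minutes of a stimulus. The 10 members described here were Klf1, Klf2, Klf3, Klf4, Klf6, Klf7, Klf9, Klf10, Klf12 and Klf13. They were chosen by name, with earlier results of these data known, and all 10 were found among the 17068 genes of the deposited tables. The tables hold 5 other family members, Klf5, Klf8, Klf11, Klf15 and Klf16.

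The cells were haematopoietic stem cells (HSCs) sorted from mouse marrow, and the Gfp-Lc3 genotype, a green fluorescent tag on the autophagy protein LC3, was shared by all groups. The 6 groups were old mice fasted for 24 hours, old mice fasted for 24 hours and refed for 24 hours, old mice fed freely, young mice fasted for 24 hours, young mice fasted for 24 hours and refed for 24 hours, and young mice fed freely, each as 1 droplet single-cell library from 1 mouse. The labels give age as young or old with no number. The authors' tables compare each of 11 clusters with all other cells of the pooled libraries, so no value below is split by age or feeding and none carries an error between mice.

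The clusters added up to 22378 cells, as read from the deposited p-values. Clusters 0 to 4 held 3747 to 4904 cells each, cluster 5 held 1188, clusters 6 to 9 held 310, 267, 173 and 112, and cluster 10 held 10 cells. Depth could be read for the few cells that alone held a gene, whose totals had a median of 11707 counts (4239 to 22599), and library totals were not used here. All 10 long-term HSC markers had counts in every cluster, with mean levels over all cells between 0.241 counts per 10000 (Ctnnal1) and 4.79 (Hlf). Their summed level ran from 9.01 per 10000 in cluster 6 to 15.4 in cluster 10. Of markers of other cells, Pax5 of B cells was lowest at 0.000144 per 10000 and Lyz2 of monocytes highest at 2.66. How clusters were formed was not given in the sources used here; such clusters are usually made from the expression of the same cells, so the contrast of each cluster with other cells is described and not tested.

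Members were called higher or lower in a cluster when 2 values of the authors' deposited table passed together. The log2 fold change had to reach 0.5 in either direction, and the adjusted p, a test over cells used here only as a filter on noise, had to be under 0.05. Of 110 pairs of a member and a cluster, 7 were called higher, where 1.27% of all gene and cluster pairs were. Lower calls were made in 9 of the 107 pairs with a count, where 4.08% of all such pairs were. Klf1 had no count in clusters 7, 9 and 10, which makes 12 of 110 lower calls when these are included, where 12.6% of all pairs were. The calls fell on 7 members. Klf2, Klf4, Klf6 and Klf9 took 6 of the 7 higher calls and 6 of the 9 lower ones. Klf3, Klf10 and Klf12 were called in no cluster where they had a count.

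**Figure D1:**
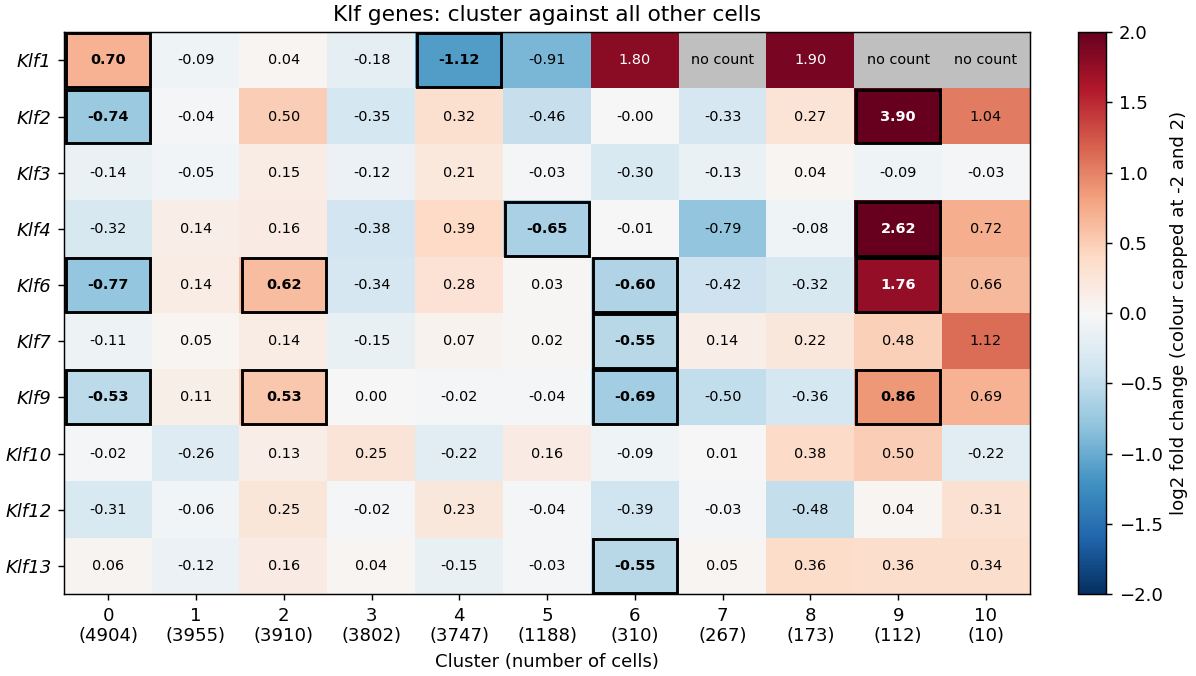
Authors' deposited log2 fold change of each Klf gene (rows) in each cluster against all other cells (columns, number of cells in brackets); boxes and bold type mark called pairs and grey marks no count. The 4 boxed values of cluster 9 (Klf2, Klf4, Klf6 and Klf9) lie between 0.86 and 3.90. Klf2 in cluster 2, Klf9 in cluster 7 and Klf10 in cluster 9 print as 0.50 in size and lie just under the size needed.

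Levels are given as counts per 10000 averaged over cells on a natural log scale (of 1 plus the value) and turned back, the scale that the deposited folds were found to use. The level in each cluster was solved from the 11 deposited folds of a gene and the cluster sizes. The widest member between clusters of over 1000 cells was Klf1, with a 2.82-fold distance between its highest and lowest level. Klf6 followed with 2.17-fold, Klf2 with 2.01-fold, Klf4 with 1.93-fold and Klf9 with 1.81-fold. The other 5 members lay within 1.36-fold over those 6 clusters. The levels carry no spread over mice, so the order of clusters below is that of these cells alone.

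**Figure D2:**
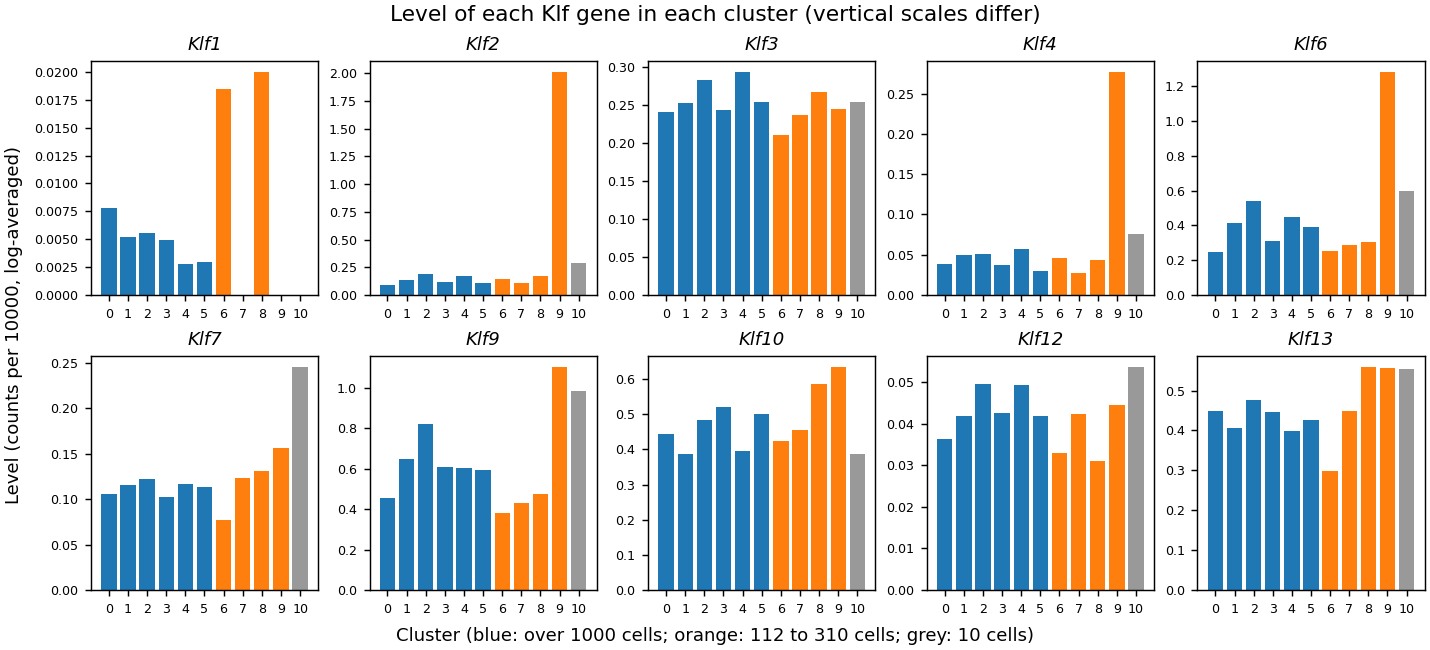
Level of each Klf gene (counts per 10000, log-averaged; vertical scales differ) in the 11 clusters; colours separate clusters of over 1000 cells, clusters of 112 to 310 cells and the cluster of 10 cells. Klf2 stands at 2.01 in cluster 9 and between 0.0924 and 0.185 in clusters 0 to 5, whereas Klf3 stays between 0.211 and 0.293 in clusters 0 to 9.

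Klf2 encodes a factor that holds T cells in quiescence and mediates the response of endothelium to blood flow (chromosome 8, 72319033 to 72321656, plus strand, mm10). Its level was 2.01 counts per 10000 in cluster 9, against 0.0924, 0.137, 0.185, 0.115, 0.168 and 0.104 in clusters 0 to 5 in that order. In clusters 6 to 8 it was 0.140, 0.112 and 0.169, and in the 10 cells of cluster 10 it was 0.288. Cluster 9 therefore stood far above every other cluster, and among the large clusters 0 was lowest and 2 highest. The authors' deposited table gave a log2 fold change of 3.90 for cluster 9, which placed the gene 15th in their order of that table. Klf2 was lower in cluster 0, at -0.74 in the authors' deposited table. In cluster 2 it missed a call at 0.4998, and in clusters 3 and 5 it missed at -0.35 and -0.46. The mean level of Klf2 over all cells was 0.244 per 10000, 1.74 times its log-averaged level of 0.140. That ratio was the largest of the 10 members, the others lying between 1.33 (Klf13) and 1.61 (Klf4), and it grows when counts sit in few cells.

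Klf4, which promotes monocyte differentiation and is one of the factors used to reprogram cells to pluripotency (chromosome 4, 55527143 to 55532466, minus strand), had its highest level in the same cluster. Its level was 0.276 counts per 10000 in cluster 9, against 0.0384, 0.0497, 0.0504, 0.0367, 0.0574 and 0.0298 in clusters 0 to 5 in that order. Clusters 6, 7 and 8 stood at 0.0457, 0.0268 and 0.0436, and cluster 10 at 0.0757. The log2 fold change of cluster 9 was 2.62 in the authors' deposited table, a higher call. Klf4 was lower in cluster 5 at -0.65 in the authors' deposited table, the one Klf call of that cluster, where 0.135% of all genes were called higher and 0.94% of those with a count lower. At the mean level of all cells, the 112 cells of cluster 9 would hold 9.70 counts of Klf4 and 32.0 of Klf2. The value of -0.79 in cluster 7 did not pass the filter.

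Klf6, a broadly expressed family member induced early after growth stimulation and injury (chromosome 13, 5861482 to 5870394, plus strand), varied in the large clusters as well. Its level was 0.247, 0.413, 0.537, 0.312, 0.447 and 0.388 counts per 10000 in clusters 0 to 5 in that order. Clusters 6, 7 and 8 stood at 0.252, 0.286 and 0.305, cluster 9 at 1.28 and cluster 10 at 0.599. Clusters 9 and 2 were thus the highest of those over 100 cells and clusters 0 and 6 the lowest. By the authors' deposited tables Klf6 was called in 4 clusters, higher in clusters 9 (1.76) and 2 (0.62) and lower in clusters 0 (-0.77) and 6 (-0.60). In the authors' order of genes it stood 58th from the top in cluster 2 and at place 17026 of 17068 in cluster 0.

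Klf9, which codes for a factor induced by glucocorticoids and thyroid hormone in many tissues (chromosome 19, 23141226 to 23168134, plus strand), was called in the same 4 clusters and the same directions as Klf6. Its level was 0.454, 0.650, 0.822, 0.611, 0.602 and 0.592 counts per 10000 in clusters 0 to 5 in that order. Clusters 6, 7 and 8 stood at 0.380, 0.433 and 0.477, cluster 9 at 1.10 and cluster 10 at 0.984. Clusters 1, 3, 4 and 5 lay close together, with cluster 2 above and cluster 0 below them. The authors' deposited tables gave Klf9 log2 fold changes of 0.86 (cluster 9), 0.53 (cluster 2), -0.53 (cluster 0) and -0.69 (cluster 6). In cluster 7 the fold of -0.4994 lay just under the size needed.

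The stretches upstream of these 4 genes are shown because they are the members called together in cluster 9. Each is the 250 bases before the RefSeq transcript start (GRCm38.p6, which is mm10), read 5′ to 3′ on the gene's strand. Klf2 lies at chr8:72318812-72319061 (plus), Klf4 at chr4:55532476-55532725 (minus), Klf6 at chr13:5861239-5861488 (plus) and Klf9 at chr19:23140976-23141225 (plus). Capitals mark TGACG, a short form of the cAMP response element, on either strand, and the MEF2 box, the element bound by the factors through which KLF2 and KLF4 genes are known to be induced; the window of Klf6 holds neither.
Klf2: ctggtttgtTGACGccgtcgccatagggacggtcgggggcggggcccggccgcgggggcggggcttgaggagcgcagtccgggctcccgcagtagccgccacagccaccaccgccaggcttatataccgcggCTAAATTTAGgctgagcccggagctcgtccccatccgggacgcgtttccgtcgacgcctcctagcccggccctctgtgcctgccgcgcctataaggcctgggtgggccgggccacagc
Klf4: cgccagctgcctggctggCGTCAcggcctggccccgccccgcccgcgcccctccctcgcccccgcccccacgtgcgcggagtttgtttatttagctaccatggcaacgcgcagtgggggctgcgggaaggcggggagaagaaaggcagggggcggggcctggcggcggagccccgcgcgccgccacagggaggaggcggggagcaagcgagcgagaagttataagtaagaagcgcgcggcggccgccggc
Klf6: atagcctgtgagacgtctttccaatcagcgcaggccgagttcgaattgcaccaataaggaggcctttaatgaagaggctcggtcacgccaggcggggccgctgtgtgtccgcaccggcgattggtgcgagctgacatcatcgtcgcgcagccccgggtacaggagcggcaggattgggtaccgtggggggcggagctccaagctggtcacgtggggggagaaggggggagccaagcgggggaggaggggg
Klf9: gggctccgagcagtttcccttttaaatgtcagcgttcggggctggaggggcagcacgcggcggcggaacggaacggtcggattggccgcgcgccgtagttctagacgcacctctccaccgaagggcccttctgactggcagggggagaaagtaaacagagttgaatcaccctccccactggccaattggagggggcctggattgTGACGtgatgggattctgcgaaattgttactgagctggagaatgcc

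RefSeq windows matched 9 of the 10 members. Searched on both strands, TGACG was found in 5 of the 9 windows (Klf2, Klf4, Klf9, Klf12 and Klf13) and in 17.8% of all 32841 promoter windows of that length. The full element TGACGTCA, which contains TGACG, was in 0 of 9 and in 1.55% of all. The CArG box, the serum response factor element of many immediate early genes, was likewise in 0 of 9 and in 1.47% of all. The MEF2 box was in the window of Klf2 alone, at positions -118 to -109 from its start, and in 2.92% of all windows. It was added to the search after the sequences were seen. The GC box GGGCGG was in 6 of 9 windows, against 32.7% of all, with 6 places for Klf3, 4 for Klf4, 3 for Klf13, 2 for Klf2 and 1 each for Klf6 and Klf7. CACCC, the box that the family itself reads, was in 7 of 9, against 52.0% of all, at 5 places for Klf3 and 3 for Klf7, and Klf4 and Klf6 had none. A match of letters describes the window only and does not show that a factor binds there.

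In cluster 9 the 4 Klf genes stood among a much larger group. Of 10 Klf members 4 were higher, where 1.2% of all genes were, and 0 of the 9 with a count were lower, where 2.08% were. The members were chosen with earlier results of these data known, so this count is a description. Of the family genes outside the list, Klf5, Klf8, Klf11 and Klf16 were not called in cluster 9 and Klf15 had no count. The median fold of the 9 Klf genes with a count was 0.50, against 0.04 over all genes with a count. Of 16 immediate early genes, the transcription factors and feedback regulators induced within minutes of a stimulus, 14 were higher (median 2.54). Atf3 (5.89), Nr4a1 (4.56), Egr3 (4.02) and Fos (3.26) led them in the authors' deposited table. Atf3 was rare, with a log2 mean level of -8.37 over all cells and no count in clusters 6, 8 and 10. Klf7 (0.48) and Klf10 (0.4958) fell short of the size needed in cluster 9. Klf13 (0.36), Klf12 (0.04) and Klf3 (-0.09) were further away.

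Genes that Klf factors or their inputs are known for were mixed in cluster 9. Of 8 KLF2 trafficking and endothelial targets 2 were higher, the cell cycle inhibitor gene Cdkn1a (3.34) and the sphingosine phosphate receptor gene S1pr1 (0.94) in the authors' deposited table, and 2 had no count. Of 8 genes induced by TGF-beta, as Klf10 is, 3 were higher, led by Skil (2.35) and Id1 (2.02) in the authors' deposited table. Of 8 glucocorticoid-induced genes, the kinase gene Sgk1 (2.00) and the phosphatase gene Dusp1 (2.70) were higher and the chaperone partner gene Fkbp5 (-0.74) lower in the authors' deposited table. Dusp1 is also one of the immediate early genes. Of 14 genes for inputs to Klf genes, such as kinases, MEF2, FOXO and SMAD factors, 0 passed in either direction (median 0.10). Of these the MEF2 genes, singled out after their values were seen, had 0.20 (Mef2a), 0.24 (Mef2c) and -0.09 (Mef2d) in the authors' deposited table. The 10 long-term HSC markers had a median of 0.09 in cluster 9 and 0 passed. Of marker lists of other cells, 2 genes passed, both lower: Epor (-1.41) and Nkg7 (-1.13) in the authors' deposited table. The part of the immediate early genes in the Klf values was not tested.

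**Figure D3:**
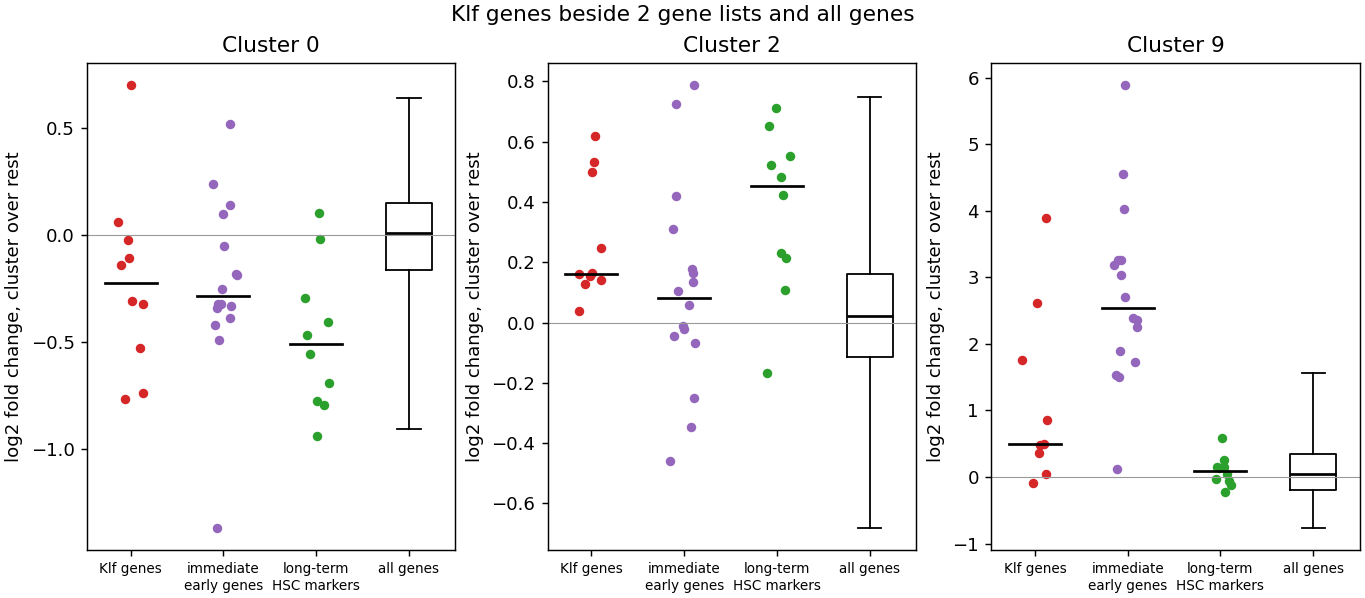
Log2 fold change of the cluster over the rest (vertical axis, scales differ) for Klf genes, immediate early genes and long-term HSC markers with a count, 1 point per gene and a bar at the median, beside all genes with a count (box from the 25th to the 75th percentile, line at the median, whiskers from the 5th to the 95th). In cluster 9 the immediate early median is 2.54 and the Klf median 0.50; in cluster 0 the Klf median is -0.22 and that of the HSC markers -0.51.

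Cluster 0 held 3 lower Klf genes, Klf2, Klf6 and Klf9, of 10, where 6.19% of all genes with a count were lower. It held 1 higher one, Klf1, where 2.4% of all genes were. The median over the 10 members was -0.22, against 0.01 over all genes with a count, and 8 of 10 folds lay below 0. Outside the 10 members, Klf5 (-0.74) and Klf15 (-0.93) were lower among the 5 other family genes in the authors' deposited table. Both were rare, with log2 mean levels of -6.32 and -8.13 over all cells, against a median of -3.36 over all genes. Of 16 immediate early genes, Atf3 (-1.37) was lower and Myc (0.52) higher in the authors' deposited table (median -0.29). Long-term HSC markers were lower in 5 of 10 (median -0.51), among them Procr (-0.94), Ly6a (-0.79), Mllt3 (-0.78) and Fgd5 (-0.69) in the authors' deposited table. Their summed level was 9.35 per 10000 in cluster 0, against 9.01 to 14.7 in clusters 1 to 9. Megakaryocyte markers were higher in 5 of 7, with Gp1bb at 1.56 and Gp5 at 1.31 in the authors' deposited table. Their summed level was 2.85 per 10000 in cluster 0, against 1.83 to 3.30 in clusters 1 to 9. Of 3 T or NK cell markers Nkg7 (2.09) was higher in the authors' deposited table, while Cd3d (-0.51) and Trbc2 (-1.66) were uncalled and below 0. Their summed level was 0.226 per 10000 in cluster 0, against 0.0242 to 0.198 in clusters 1 to 9. Over all cells Nkg7 held 0.137 of their summed mean level of 0.143 per 10000, so the sum mostly follows that gene. The part of these shifts in the Klf values was not tested.

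Of 8 genes that KLF2 is known to activate, the thrombomodulin gene Thbd (0.56) was among those higher in cluster 0, where Klf2 was lower, and the nitric oxide synthase gene Nos3 (-2.25) was lower in the authors' deposited table. Of 8 glucocorticoid-induced genes, Errfi1 (-0.69) was lower in cluster 0 in the authors' deposited table, and 0 passed in cluster 2.

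In cluster 2, Klf6 and Klf9 were higher, 2 of 10, where 3.02% of all genes were. No member was lower, where 2.7% of genes with a count were, and all 10 members had folds above 0. The median was 0.16, against 0.02 over all genes with a count. Klf5 (0.68), rare at a log2 mean level of -6.32 over all cells, was higher among the 5 other family genes in the authors' deposited table. Of 16 immediate early genes 0 passed in either direction (median 0.08). Long-term HSC markers were higher in 4 of 10 (median 0.45), with Ctnnal1 at 0.71 and Mllt3 at 0.65 in the authors' deposited table, and their summed level was 14.7 per 10000. Megakaryocyte markers were lower in 3 of 7, Gp5 (-1.26), Itga2b (-1.07) and Gp1bb (-0.71) in the authors' deposited table, with a summed level of 2.74 per 10000. Of 3 T or NK cell markers Nkg7 (-2.26) was lower in the authors' deposited table, while Cd3d (-0.42) and Trbc2 (0.72) were uncalled. The 3 summed to 0.0242 per 10000, a sum that mostly follows Nkg7. The part of these markers in the Klf values was not tested. The TGF-beta-induced genes Id1 (1.26) and Pmepa1 (1.12) were higher, while Klf10, which that signal induces, was at 0.13 in the authors' deposited table. Id1 (-0.80), Pmepa1 (-0.94) and Id2 (-0.89) were lower and Tgfb1 (0.67) higher in cluster 0, where Klf10 was at -0.02 in the authors' deposited table. Clusters 0 and 2 are each part of the other's comparison group, so their opposite folds are not separate observations.

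Klf2, Klf4 and Klf6 were uncalled in clusters 3 and 4, which had calls on immediate early genes in opposite directions. In cluster 4, 4 of 16 immediate early genes were higher (median 0.26), and Klf4 (0.39), Klf2 (0.32) and Klf6 (0.28) lay above 0 in the authors' deposited table without reaching the size needed. In cluster 3, 6 of 16 immediate early genes were lower (median -0.42), and Klf4 (-0.38), Klf2 (-0.35) and Klf6 (-0.34) lay below 0 there, also uncalled. Klf9 was at 0.00 in cluster 3 and -0.02 in cluster 4. In cluster 8, 4 of 16 immediate early genes were lower (median -0.40), while Klf2 was at 0.27, Klf4 at -0.08 and Klf6 at -0.32 in the authors' deposited table, all uncalled. In cluster 6, 6 of 16 were lower (median -0.39), while Klf2 (-0.00) and Klf4 (-0.01) lay at 0 in the authors' deposited table. All genes with a count had a median of -0.23 in that cluster, and 14.3% of them were lower. Klf2 and Klf4 thus lay above that median, and relative to it fewer immediate early genes were lower, as given below. The signs of Klf2, Klf4 and Klf6 thus matched that of the immediate early median in clusters 3 and 4, by values that did not pass. They did not match for Klf2 in cluster 8. Nor did they for Klf2 in cluster 1 (-0.04, median above 0) or Klf6 in cluster 5 (0.03, median below 0), both uncalled.

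**Figure D4:**
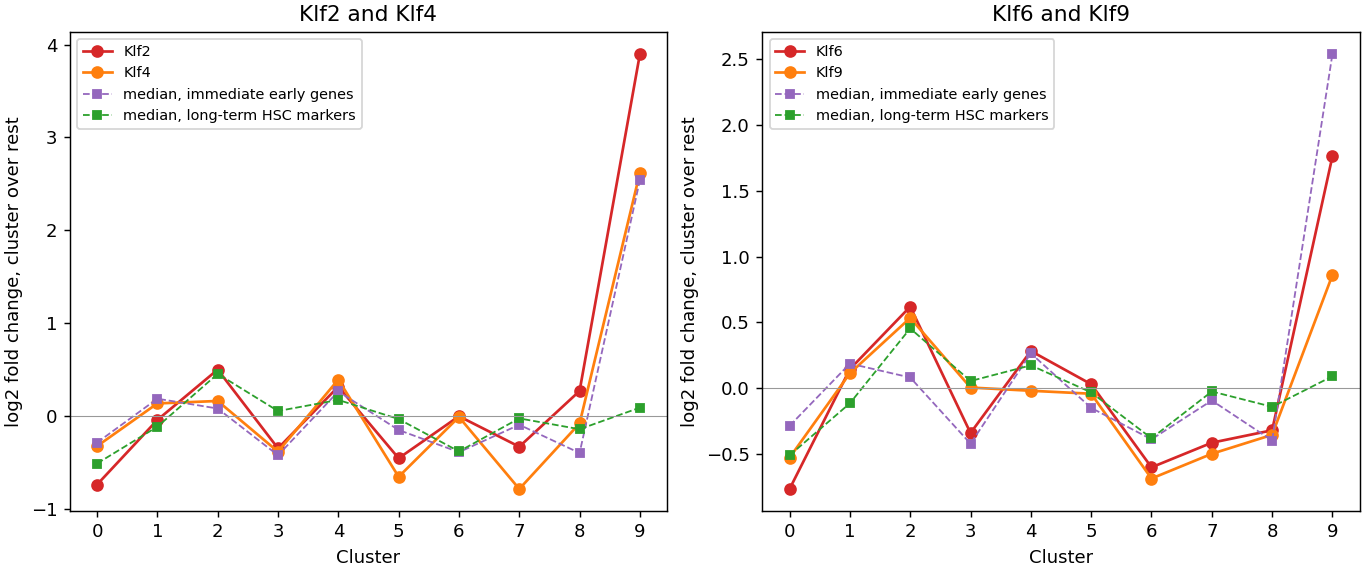
Log2 fold change of the cluster over the rest (vertical axis) in clusters 0 to 9 for Klf2 and Klf4 (left) and Klf6 and Klf9 (right), with the medians of the immediate early genes and of the long-term HSC markers in both panels; clusters have no order and the lines only join the points of 1 gene or list. The 4 genes and the immediate early median peak in cluster 9, where the HSC marker median is 0.09, and Klf6 (0.62) and Klf9 (0.53) also stand above 0.5 in cluster 2, where the immediate early median is 0.08.

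Likeness of pattern was read as Pearson's r of the deposited log2 folds over clusters 0 to 9, which share cells in their comparison groups, and it is a description of 10 points. For Klf2 the most similar of the 8246 genes with counts in all 10 clusters at or above the median level were Csrnp1 (0.97), Dusp1 (0.97), Nr4a1 (0.97) and Ctc1 (0.97). For Klf4 they were Zfp36 (0.97), Dusp1 (0.97), Klf2 (0.97) and Ier2 (0.96). For Klf6 they were Irs2 (0.99), Rhob (0.98), Coq10b (0.97) and Sertad2 (0.97). For Klf2 and Klf4 other genes came first without cluster 9. Over the 9 clusters left, the genes most similar to Klf2 were Ank, Gorab, Lrch3 and Slc4a1ap (0.87 to 0.88), and for Klf4 they were Arid5b (0.91), Zbtb24, Adipor1 and Zfand6. For Klf6, Irs2, which encodes an adaptor of the insulin receptor, stayed first at 0.97. The genes after it changed to Mettl7a1 (0.96), Dnajb2 (0.95) and Gbp5 (0.95). Between members, r of Klf6 and Klf9 was 0.93 with cluster 9 and 0.91 without it, and r of Klf2 and Klf4 was 0.97 with it and 0.75 without it. Klf1, the member with the widest range, was left out because it had no count in 2 of these clusters.

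Klf1 encodes the master activator of red cell genes, beta-globin among them (chromosome 8, 84901928 to 84905291, plus strand). It was rare in these cells, with about 201 counts estimated over all 22378 cells at a depth of 11707 counts per cell. Its level was 0.00782, 0.00520, 0.00560, 0.00493, 0.00277 and 0.00299 counts per 10000 in clusters 0 to 5 in that order. Cluster 0 was thus the highest and cluster 4 the lowest of the large clusters. By the authors' deposited tables Klf1 was higher in cluster 0 (0.70) and lower in cluster 4 (-1.12). In cluster 4, 0.387% of all genes were higher and 0.835% of those with a count lower. Clusters 6 and 8 stood at 0.0184 and 0.01998 per 10000, but their folds of 1.80 and 1.90 did not pass, and at the mean level of all cells they would hold only 2.79 and 1.56 counts. In clusters 7, 9 and 10 no count was found where 2.40, 1.01 and 0.0899 would be held at that mean. A count of 0 allows up to 3, so a difference was not detectable there.

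Red cell genes linked to KLF1 were mixed in the clusters where Klf1 was called. Of 11 measured, Gata1 (2.74), which codes for the partner factor of red cells and megakaryocytes, was higher in cluster 0, and Alas2 (-3.04), the gene of the first enzyme of haem synthesis in red cells, was among those lower there in the authors' deposited table. The median of the 11 was -0.28, against 0.01 over all genes with a count. In cluster 4 Gata1 (-1.14) was lower with Klf1 in the authors' deposited table. By the authors' deposited tables Gata1 was also lower in clusters 1 (-1.67), 2 (-1.77) and 3 (-1.57), where Klf1 was uncalled at -0.09, 0.04 and -0.18 in that order. Its lower call in cluster 4 was shared with the 3 other clusters of that size in which Klf1 was not called. Cluster 0, where Gata1 was higher, is part of the comparison group of each of these clusters, so their lower folds are not separate observations. In cluster 6, 10 of the 11 lay above 0 (median 2.73), of which the globin gene Hbb-bs (1.99), whose reads are hard to separate from those of its near copy Hbb-bt, passed in the authors' deposited table. Erythroid markers summed to 0.602 per 10000 in cluster 6, with Car1 at 0, and to 0.174 to 0.301 in the other clusters of 0 to 9. The T or NK cell markers there had a median fold of 4.94 and 0 of 3 passed. Their part in the Klf1 value was not tested.

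Cluster 6 had the most lower calls on Klf genes, 4 of 10 (Klf6, Klf7, Klf9 and Klf13), where 14.3% of all genes with a count were lower and 0.0469% of all genes higher. The median of all genes with a count was itself -0.23 in that cluster, against -0.35 for the Klf genes. Klf7, which codes for a factor best known in neurons and in lymphoid precursors, was at -0.55 and Klf13, whose product recruits the SIN3A corepressor, also at -0.55 in the authors' deposited table. Relative to the median of all genes 0 of the 4 remained called, where 6.46% of all genes with a count were. Immediate early genes were lower in 6 of 16 and long-term HSC markers in 4 of 10 of that cluster. Relative to the median of all genes these were 3 of 16 (Egr3, Nr4a1 and Myc) and 1 of 10 (Ctnnal1).

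The members with few or no calls were steady across the large clusters. In clusters 0 to 5, Klf3, which codes for a repressor that works through CtBP, had its lowest level of 0.240 counts per 10000 in cluster 0 and its highest of 0.293 in cluster 4. Klf12, the gene of another CtBP-binding repressor, ranged between 0.0364 (cluster 0) and 0.0496 (cluster 2). Klf13 lay between 0.399 (cluster 4) and 0.477 (cluster 2), and Klf7 between 0.103 (cluster 3) and 0.122 (cluster 2). None of these distances reached a call.

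Klf10, first found as an early gene induced by TGF-beta, had 0.388 counts per 10000 in cluster 1, the lowest of clusters 0 to 5, and 0.520 in cluster 3, the highest. It reached 0.586 in cluster 8 and 0.633 in cluster 9. Its order over the large clusters differed from that of Klf6: cluster 3 was the highest of them for Klf10 and the second lowest for Klf6. Of clusters 0 to 9, both genes were highest in cluster 9. Between the folds of the pair r was -0.16 over clusters 0 to 5, 0.41 over clusters 0 to 9 and -0.14 over clusters 0 to 8.

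Corepressor and coactivator genes on which the family relies, such as Sin3a and Ep300, had few calls. Of 10, 0 passed in cluster 0 (median 0.10), cluster 2 (0.06) and cluster 9 (0.09). In cluster 6, which had the most lower Klf calls, Ctbp2 (-0.53) and Crebbp (-0.51) were lower in the authors' deposited table, and 0 relative to the median of all genes. Hdac1 (-0.58) was lower in cluster 7 and Ctbp1 (0.78) higher in cluster 10 in the authors' deposited tables. The SP relatives, factors with like zinc fingers that read the same GC boxes, also had 0 of 5 past the rule in those clusters, with 1 of the 5 at no count in cluster 9. In cluster 6, Sp1 (-0.56) and Sp4 (-0.76) were lower in the authors' deposited table, and Sp4 alone relative to the median of all genes. Of the 5 other Klf genes 0 passed in cluster 9, and Klf15 had no count there. No member with a count was called in clusters 1, 3, 7, 8 and 10. In that order of clusters, 0.123%, 0.703%, 1.84%, 2.37% and 1.79% of all genes were higher, and 1.59%, 1.39%, 11.3%, 4.18% and 0.222% of genes with a count were lower. With 10 members, shares of this size give few calls.

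Cluster 10 held 10 cells, and its highest Klf folds, 1.12 for Klf7 and 1.04 for Klf2 in the authors' deposited table, did not pass. A count of 0 there allows a share of cells with a counted molecule of up to 30%.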

How the data were processed

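The material was 11 gene tables, each comparing 1 cluster with all other cells of 6 pooled libraries. Per the submitters' processing notes, the authors used Scanpy on mm10. The aligner, cell filters, doublet handling, clustering and test were not given in the sources used here. Per the file headers, the authors deposited a log2 mean level over all cells and a log2 fold change. The levels sum to 10000 over genes. The authors also deposited a p-value over cells and its adjustment. The 11 pathway tables were not used.

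Folds under -10 were read as no count in the cluster (deposited folds leave a gap between -14.0 and -5.80). Cluster sizes were read from the p-values of 19 genes seen in 1 cell, on both sides of the comparison for 7 clusters and on 1 side for 4. The mean of log values over all cells was solved so that cluster means, weighted by size, add up to it. Checked on 200 genes with no count in cluster 10, where it can be read directly, the error was at most 0.0177%. Both steps were tested on simulated data. Depth per cell was taken as the median over the cells that held those 19 genes. Counts estimated or expected at a mean level use this same depth for every cluster. Deeper cells are more likely to hold such a gene, so these counts may be too high.

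The tables pool the libraries by cluster, so no test over samples could be made from them. Named genes were up to 4 per list with the largest fold among those called, and the 4 most similar genes for members with the widest range. Members and lists were chosen with earlier results of these data known. Alternatives changed the fold size, the adjusted p, the centring, the clusters and the level filter. Python 3.11.15, pandas 2.3.3, numpy 2.4.6, scipy 1.17.1 and matplotlib 3.10.9 were used. Promoters came from RefSeq (GRCm38.p6) and gene positions from GENCODE. Protein sequences were not used here. Values of some list members are not reported here.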

Additional observations from a re-analysis of the deposited data

How the results depend on the processing

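Of the 110 pairs, 7 were called higher and 12 lower, pairs with no count included. With a log2 fold change of at least 0.25 these were 14 and 21, and with at least 1 they were 3 and 4. In clusters of over 1000 cells they were 3 and 5. Among members at or above the median level, the lower pairs were 7. Without cluster 9, a setting chosen after seeing the data, the higher pairs were 3. Relative to the median of all genes the lower pairs were 8, and without pairs that had no count they were 9. Taking that median from the gene lists in cluster 6 was also chosen after seeing the data. The other settings moved neither count by more than 1.5 times. No paired analysis was possible because the tables hold clusters of pooled libraries and each group is 1 library, which also means that no replicate could be left out. Depth limits Klf1 in clusters 6 to 10, where at most 2.79 counts would be held at its mean level over all cells, and all members in cluster 10.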
